A study of Arabidopsis thaliana with 56 samples.

Results

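Wild-type (WT) endosperm of Arabidopsis thaliana was compared between 7 and 6 days after pollination (DAP) in 8 mRNA libraries, 4 of WT 7 DAP and 4 of WT 6 DAP. These are the libraries labelled as WT endosperm mRNA, chosen by their labels alone, among 20 endosperm mRNA libraries and 56 samples in the series. The series sets WT against crwn1/2, a genotype named for the CRWN genes, whose proteins form the plant nuclear lamina. The day change in crwn1/2, with 5 libraries at 7 DAP and 3 at 6 DAP, is given here to show where that of WT differs. All 20 endosperm mRNA libraries were fitted together, those of crwn1/2 at 8 DAP included. The crwn1/2 libraries thus also set the spread behind the p-values for changes in WT. RNA was taken from nuclei, not whole cells. The nuclei were sorted from crushed seeds by their DNA content at the 6C level, with seeds of 1 to 5 siliques in each mRNA sample, per the labels. No label names a treatment, a batch or separate plants for the replicates. The p-values thus measure the spread between the samples used, which may be technical.

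The endosperm is the seed tissue that feeds the embryo. In Arabidopsis it begins as a shared cytoplasm with many nuclei, forms cell walls in the days after fertilisation, and is then largely broken down while the embryo grows into its space. Seed filling, in which storage proteins and oil are laid down, is under the control of the transcription factors LEC1, LEC2, FUS3 and ABI3, and many genes of early endosperm are imprinted, that is, expressed from the maternal or the paternal copy.

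Total counts ranged from 6986418 to 9448478 in WT 7 DAP libraries and from 7818548 to 8899933 in WT 6 DAP libraries. The number of features with at least 1 count ranged from 46048 to 49133 at 7 DAP and from 35720 to 44367 at 6 DAP, without overlap. On the first principal component, with 47.51% of the variance, the libraries of 7 DAP lay between 51 and 95.49 and those of 6 DAP between -98.57 and -51.64. WT 7 DAP replicate 1 stood apart on the second component, with 11.99% of the variance, at 82.09 against -46.12 to -26.21 for the other WT 7 DAP libraries. Of 24696 features tested, 4950 passed an adjusted p of 0.05 (edgeR quasi-likelihood F-test, Benjamini-Hochberg), a background of 20%, with 2367 higher (9.58%) and 2583 lower (10.5%) at 7 DAP. Without WT 7 DAP replicate 1 the count was 3678. With the 8 WT libraries fitted alone it was 4201, of which 3878 were among the 4950. A change of at least 2-fold was reached by 2535 features (10.3%), and the median log2 change of all features was 0.02. Levels below are CPM, counts per 1000000 of the scaled library total, and values of single libraries are given in the order of replicates 1 to 4. CPM does not take account of gene length, so levels are compared between days and not between genes. In such bulk samples, more nuclei of a type and more RNA per nucleus cannot be told apart.

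Markers of the labelled tissue and of its neighbours were read first. Of 11 endosperm markers 10 were tested, of which 3 rose and 4 fell, the 3 becoming 1 without WT 7 DAP replicate 1, WT 6 DAP replicate 1 or WT 6 DAP replicate 3. Their summed level ranged from 201 to 298 CPM at 7 DAP and from 288 to 341 CPM at 6 DAP. PHE1, WRKY10 and IKU2, known from early endosperm, were near 0, with at most 3.03 CPM in any WT library. All 13 seed coat markers were detected, and their summed level ranged from 1486 to 2113 CPM at 7 DAP and from 2252 to 2559 CPM at 6 DAP, without overlap. Of these, BAN, an anthocyanidin reductase of the inner seed coat, fell to 157 ± 19.7 CPM at 7 DAP, against 406 ± 46.3 CPM at 6 DAP (SD, n = 4 each; log2 change -1.37, SE 0.2, edgeR adjusted p 2.91e-05), and AT3G50990 fell by 2.24 on the log2 scale (SE 0.42, edgeR adjusted p 0.000548). The other 11 did not pass the threshold, among them TT10, a laccase of the seed coat, with 516 ± 97.6 CPM at 7 DAP and 513 ± 59.4 CPM at 6 DAP. Of 15 embryo markers 14 were tested and 0 passed in edgeR or DESeq2, with 2 higher and 1 lower at an unadjusted p under 0.05, and their summed level ranged from 620 to 785 CPM at 7 DAP and from 644 to 706 CPM at 6 DAP. Seed coat transcripts were thus present in all 8 libraries, and their part in the results that follow was not tested.

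Seed storage proteins fill the vacuoles of the maturing seed and feed the seedling. All 9 that were measured rose (background 9.58% higher), with log2 changes from 3.97 to 11.81 and a median of 7.45, against 0.02 for all features. Their summed level was 13672, 12409, 20784 and 5057 CPM in WT 7 DAP libraries, against 155, 199, 163 and 187 CPM in WT 6 DAP libraries. The days were far apart, with replicate 3 highest and replicate 4 lowest at 7 DAP. All 9 passed the threshold in each fit that left out a WT library.

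Cruciferins are the 12S globulins of the seed, and the 2S albumins are its other main storage proteins. The cruciferin gene CRU3 (AT4G28520) had 1314, 979, 2639 and 416 CPM at 7 DAP, against 0.479, 0.363, 0.258 and 0.338 CPM at 6 DAP. It was near the limit of detection at 6 DAP, with 12 counts over the 4 libraries, and its log2 change was 11.81 (SE 1.1, edgeR adjusted p 2.51e-07). CRU2 (AT1G03880) had 459, 315, 879 and 68.7 CPM at 7 DAP, against 1.08, 1.45, 2.19 and 1.69 CPM at 6 DAP, by 8.06 on the log2 scale (SE 0.81, edgeR adjusted p 5.77e-07). The third cruciferin gene, CRA1 (AT5G44120), was already at 30.7 to 75.8 CPM at 6 DAP and reached 1258 to 3545 CPM at 7 DAP, higher by 5.33 on the log2 scale (SE 0.64, edgeR adjusted p 3.68e-06). The days did not overlap for any of the 3 cruciferin genes, as was the case for 24% of all features.

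Among the 2S albumin genes, SESA4 (AT4G27170) had 2297, 1784, 2813 and 405 CPM at 7 DAP, against 4.19, 6.54, 4.26 and 6.19 CPM at 6 DAP (log2 change 8.42, SE 0.78, edgeR adjusted p 2.3e-07). SESA3 (AT4G27160) had 4570, 4554, 5682 and 1380 CPM at 7 DAP, against 26.1, 59.7, 80.4 and 79.7 CPM at 6 DAP (log2 change 6.04, SE 0.63, edgeR adjusted p 8.51e-07). SESA1, SESA2, SESA3 and SESA4 carry neighbouring identifiers and are similar copies, so reads could have been split among them and their single values are uncertain. SESA5 (AT5G54740), which lies elsewhere, had 88.8, 76, 168 and 58.2 CPM at 7 DAP, against 0.12, 0.121, 0.774 and 0.563 CPM at 6 DAP (log2 change 7.92, SE 0.7, edgeR adjusted p 1.65e-07). SESA1 rose least of the group, by 3.97 on the log2 scale (SE 0.45, edgeR adjusted p 1.99e-06), and had 35.4 ± 8.43 CPM at 6 DAP (SD, n = 4). PAP85, a vicilin-like globulin, rose by 6.04 on the log2 scale (SE 0.68, edgeR adjusted p 1.93e-06).

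**Figure D1:**
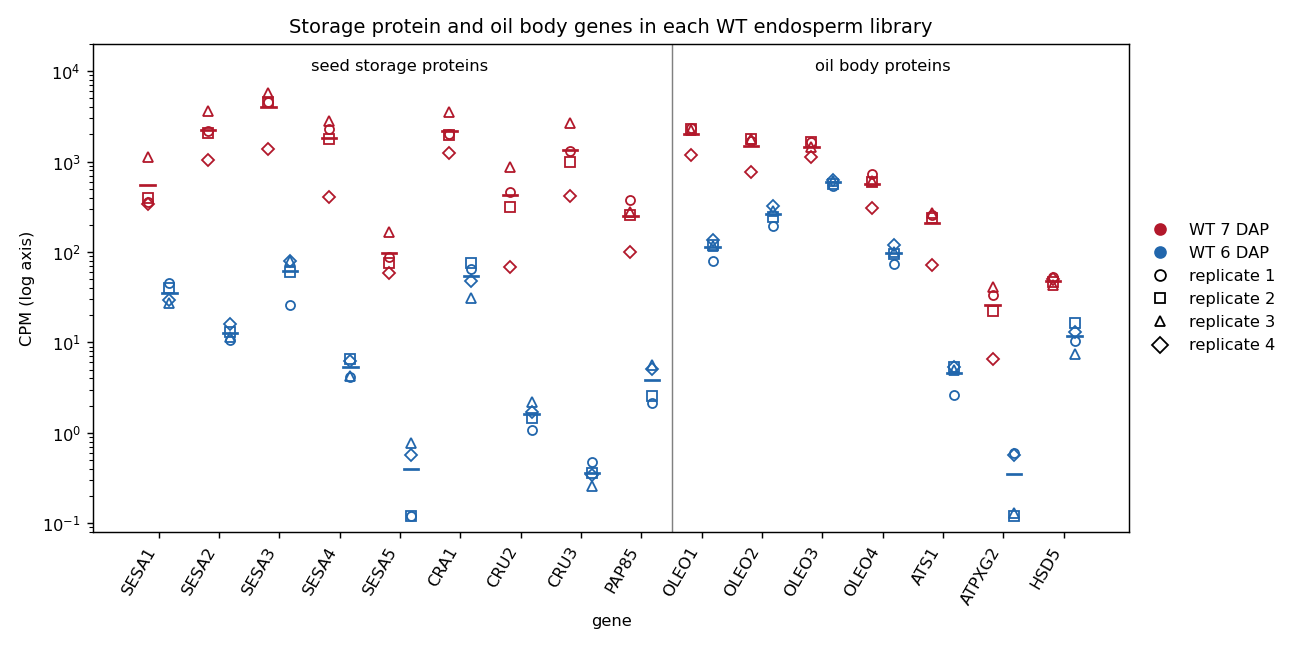
CPM on a log axis of 9 seed storage protein genes and 7 oil body genes in each WT endosperm library, WT 7 DAP left of WT 6 DAP, with a symbol for each replicate and a line at the mean of each day. The 2 days do not overlap for any of these genes, as was the case for 24% of all features. Replicate 4 (diamonds) is the lowest WT 7 DAP library for all 9 storage protein genes.

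Oil bodies, the droplets in which seeds keep their oil, are coated with oleosins, caleosins and steroleosins. All 7 oil body genes tested rose, with log2 changes from 1.31 to 6.13 and a median of 2.53. HSD1, the other measured gene of this kind, was near 0 and was not tested. Their summed level was 6771, 6594, 6445 and 3497 CPM at 7 DAP, against 905, 1045, 1133 and 1225 CPM at 6 DAP, so the days did not overlap and replicate 4 was again the lowest at 7 DAP. OLEO1 (AT4G25140), a major oleosin, had 2353, 2288, 2242 and 1172 CPM at 7 DAP, against 80, 118, 117 and 136 CPM at 6 DAP (log2 change 4.16, SE 0.43, edgeR adjusted p 7.99e-07). OLEO3 was already at 589 ± 42.2 CPM at 6 DAP and changed least, to 1464 ± 241 CPM at 7 DAP (SD, n = 4 each; log2 change 1.31, SE 0.21, edgeR adjusted p 0.000104). The caleosin ATS1 (AT4G26740) had 254, 240, 270 and 72.5 CPM at 7 DAP, against 2.63, 5.33, 4.9 and 5.29 CPM at 6 DAP (log2 change 5.52, SE 0.51, edgeR adjusted p 2.3e-07). ATPXG2, another caleosin, rose by 6.13 on the log2 scale (SE 0.75, edgeR adjusted p 4.46e-06), and the steroleosin HSD5 with 2.03 (SE 0.22, edgeR adjusted p 1.37e-06).

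The enzymes that make the oil were called less often than its coat proteins, a difference that was not tested. Of 31 tested genes of fatty acid and seed oil synthesis, 4 rose (12.9%, against 9.58% of all features) and 1 fell (3.23%, against 10.5%). Their median log2 change was 0.09. Their summed level ranged from 10034 to 11736 CPM at 7 DAP and from 9919 to 10440 CPM at 6 DAP, so the days overlapped. KCS18 (AT4G34520), also known as FAE1, which elongates fatty acids in seed oil, had 276, 314, 261 and 177 CPM at 7 DAP, against 47.7, 60.2, 66.2 and 87.4 CPM at 6 DAP (log2 change 1.98, SE 0.34, edgeR adjusted p 0.000192). ROD1, which moves choline headgroups between lipids, rose by 0.99 on the log2 scale (SE 0.22, edgeR adjusted p 0.00283), and the acyl carrier protein ACP5 with 0.97 (SE 0.21, edgeR adjusted p 0.00217). TAG1, the acyltransferase of the last step of oil assembly, also passed, with 0.43 (SE 0.13, edgeR adjusted p 0.0257). PDH-E1 BETA, a subunit of plastid pyruvate dehydrogenase, fell by 0.39 on the log2 scale (SE 0.13, edgeR adjusted p 0.0402), a call lost in 11 of 16 alternatives. The other 26 genes did not pass, among them the oleate desaturase FAD2, with 969 ± 165 CPM at 7 DAP and 965 ± 33.6 CPM at 6 DAP (SD, n = 4 each).

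Starch is a transient reserve of Arabidopsis seeds. Of 16 tested genes of its synthesis and breakdown, 1 rose and 7 fell (background 10.5% lower), with a median log2 change of -0.13. On the synthesis side, APL3 and APL4, large subunits of ADP-glucose pyrophosphorylase, fell by 1.37 (SE 0.36, edgeR adjusted p 0.00957) and 0.72 (SE 0.18, edgeR adjusted p 0.00689), and GBSS1, which makes amylose, by 0.63 (SE 0.19, edgeR adjusted p 0.0221) on the log2 scale. On the breakdown side, SEX1, a glucan water dikinase, had 40.6, 47.3, 53.1 and 40.6 CPM at 7 DAP, against 78.2, 73.8, 77.2 and 68 CPM at 6 DAP (log2 change -0.71, SE 0.14, edgeR adjusted p 0.000891). All 4 values of SEX1 at 7 DAP lay below all 4 at 6 DAP, whereas the days of GBSS1 overlapped. SEX4 and the beta-amylase CT-BMY fell as well, while the beta-amylase BAM1 rose by 0.74 on the log2 scale (SE 0.19, edgeR adjusted p 0.00686). CT-BMY was low, with 3.82 ± 1.53 CPM at 7 DAP and 9.55 ± 3.61 CPM at 6 DAP (SD, n = 4 each). Its call was lost without WT 7 DAP replicates 1 or 4 or WT 6 DAP replicates 1 or 3, with edgeR adjusted p from 0.0542 to 0.0724. It was also lost with a covariate for reads that fell outside features (edgeR adjusted p 0.151). The count of starch genes that fell was 4 without WT 7 DAP replicate 3, without WT 7 DAP replicate 4 or without WT 6 DAP replicate 1, and 2 without WT 6 DAP replicate 3.

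The regulators of seed maturation moved in both directions. Of 16 tested, 5 rose (31.2%, against 9.58% of all features) and 3 fell (18.8%, against 10.5%), with a median log2 change of 0.17. LEC1 (AT1G21970), a subunit of the CCAAT-binding factor NF-Y that acts early in seed development, had 35.8, 52.6, 51.5 and 63 CPM at 7 DAP, against 230, 177, 161 and 144 CPM at 6 DAP (log2 change -1.81, SE 0.17, edgeR adjusted p 2.51e-07). The 2 days of LEC1 did not overlap, as was the case for 24% of all features. LEC2, a B3-domain factor, also fell, by 0.70 on the log2 scale (SE 0.22, edgeR adjusted p 0.0291). It lost the call without WT 7 DAP replicate 3, WT 6 DAP replicate 1 or WT 6 DAP replicate 3, with adjusted p from 0.067 to 0.0879. The call for LEC2 was also lost with the 8 WT libraries fitted alone (edgeR adjusted p 0.0588). MYB115 fell by 1.73 on the log2 scale (SE 0.36, edgeR adjusted p 0.00138).

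The B3-domain factors FUS3 and ABI3 rose, while HSI2, another of the list, did not pass, with 191 ± 27.1 CPM at 7 DAP and 143 ± 19 CPM at 6 DAP (SD, n = 4 each; log2 change 0.42, SE 0.18, edgeR adjusted p 0.0948). FUS3 (AT3G26790) had 1192, 1046, 883 and 911 CPM at 7 DAP, against 389, 372, 530 and 439 CPM at 6 DAP (log2 change 1.22, SE 0.22, edgeR adjusted p 0.000318). ABI3 (AT3G24650) had 155, 165, 153 and 128 CPM at 7 DAP, against 78.4, 52.7, 120 and 90.5 CPM at 6 DAP (log2 change 0.82, SE 0.22, edgeR adjusted p 0.0104). The days of FUS3 and of ABI3 did not overlap, as was the case for 24% of all features. The bZIP factors EEL and DPBF2 (also known as bZIP67) rose with log2 changes of 1.29 (SE 0.18, edgeR adjusted p 2.28e-05) and 1.17 (SE 0.2, edgeR adjusted p 0.000263). DOG1, a regulator of seed dormancy, rose by 2.7 on the log2 scale (SE 0.73, edgeR adjusted p 0.011), but its values of 23.5, 0.932, 8.36 and 2.78 CPM at 7 DAP and 0.718, 0.968, 3.23 and 0.563 CPM at 6 DAP overlapped, and without WT 7 DAP replicate 1 the change was 1.58 (edgeR adjusted p 0.115). WRI1, the activator of oil synthesis genes, did not pass, with 356 ± 32.5 CPM at 7 DAP and 441 ± 66.5 CPM at 6 DAP (SD, n = 4 each; log2 change -0.31, SE 0.14, edgeR adjusted p 0.108), and ABI5, a late maturation factor, was at 2.68 ± 0.56 CPM at 7 DAP and 2.72 ± 1.28 CPM at 6 DAP (SD, n = 4 each).

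Late embryogenesis abundant (LEA) proteins protect cells in drying seeds. Of 9 measured genes 6 had enough counts to be tested. Of these 5 rose (83.3%, against 9.58% of all features), with a median log2 change of 2.35. LEA7 (AT1G52690) had 48.9, 32.6, 36.1 and 52.5 CPM at 7 DAP, against 5.63, 5.2, 3.61 and 5.97 CPM at 6 DAP (log2 change 3.05, SE 0.34, edgeR adjusted p 1.77e-06). LEA4-5 had 8.33, 2.4, 7.02 and 3.08 CPM at 7 DAP and a count in only 1 library of 6 DAP, at 0.484 CPM (log2 change 5.30, SE 1.1, edgeR adjusted p 0.00113). RAB18, a dehydrin, had 33 counts over the 4 libraries of 7 DAP and 2 over those of 6 DAP, a ratio of 17 with an exact 95% binomial interval of 4.36 to 147, which covers counting error only, and it passed in edgeR but lost the call without WT 7 DAP replicate 3, WT 6 DAP replicate 2 or WT 6 DAP replicate 3. LEA18 did not pass, with 6.86 ± 2.99 CPM at 7 DAP and 6.82 ± 2.47 CPM at 6 DAP (SD, n = 4 each). The late genes EM1, GEA6 and ATECP31 stayed under 1 CPM in all 8 libraries and were not tested.

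**Figure D2:**
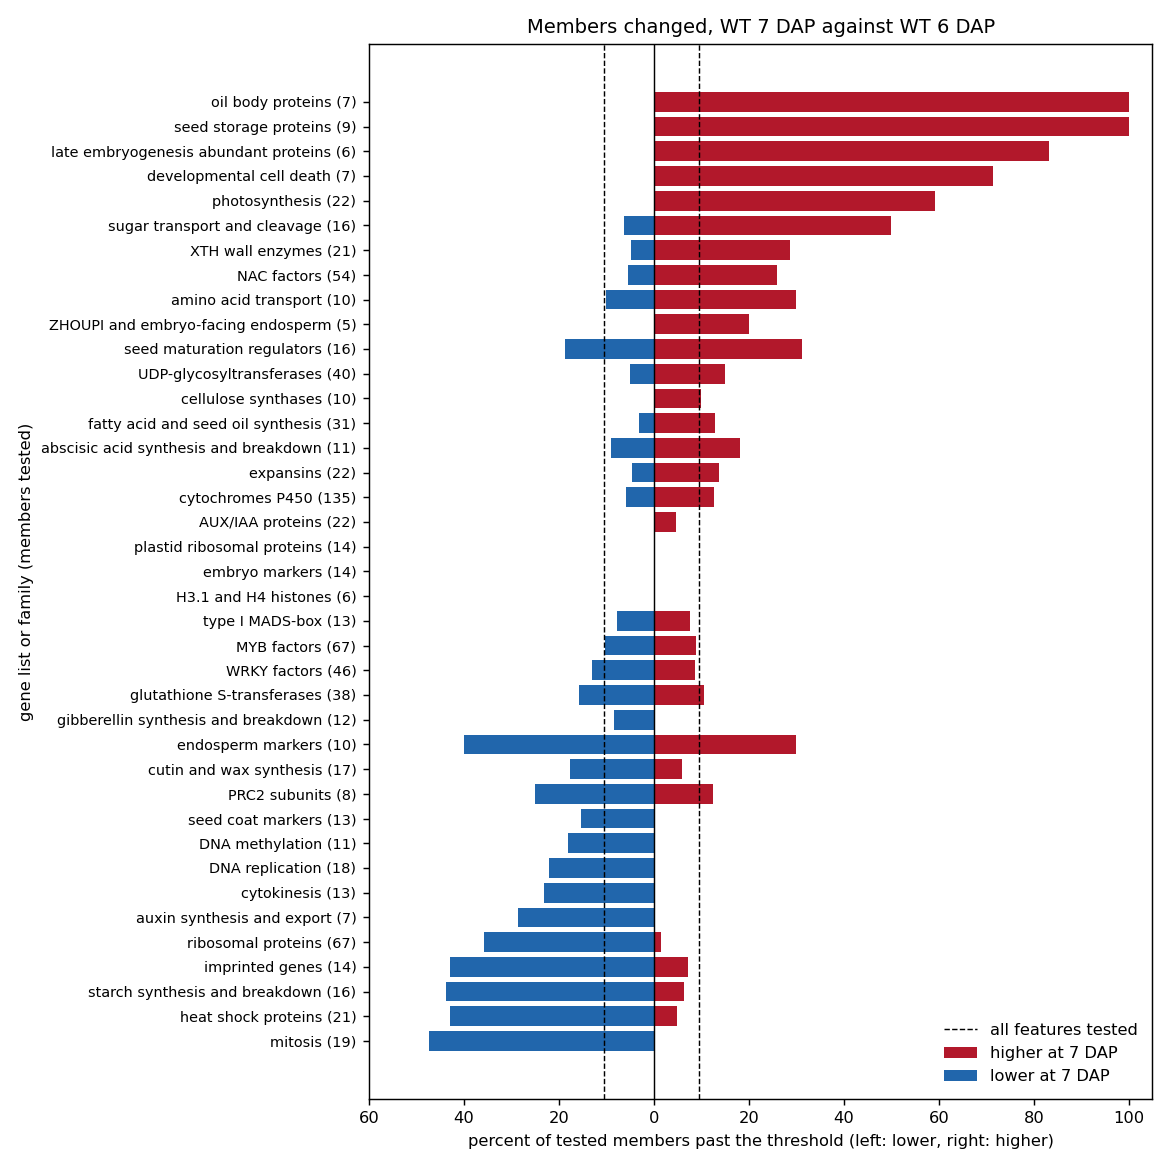
Percent of tested members that passed an adjusted p of 0.05 in WT 7 DAP against WT 6 DAP, for each gene list or family with at least 5 tested members, with the number tested in parentheses and bars to the right for higher and to the left for lower at 7 DAP. Dashed lines give the share of all 24696 features, 9.58% higher and 10.5% lower, and the bars of oil body and seed storage proteins reach 100%.

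Genes that bring sugar and amino acids into the seed and cleave sucrose were called higher at 7 DAP more often than lower. For sugar genes the shares higher and lower were 50% and 6.25%, and for amino acid transporters 30% and 10%. Those of all features were 9.58% and 10.5%, and differences from them were not tested. Of 16 tested genes of sugar transport and cleavage 8 rose and 1 fell, with a median log2 change of 0.58, and their summed level was 2656 ± 343 CPM at 7 DAP and 1256 ± 71 CPM at 6 DAP (SD, n = 4 each). STP14 (AT1G77210), of the family of sugar/proton symporters, had 318, 255, 218 and 207 CPM at 7 DAP, against 13.3, 10.2, 9.03 and 14.2 CPM at 6 DAP (log2 change 4.41, SE 0.26, edgeR adjusted p 1.48e-10). The sucrose synthase SUS2 (AT5G49190), known from maturing seeds, had 421, 365, 458 and 243 CPM at 7 DAP, against 29.9, 46.8, 52.8 and 56.9 CPM at 6 DAP (log2 change 3.00, SE 0.38, edgeR adjusted p 6.61e-06). For both genes the lowest library of 7 DAP lay far above the highest of 6 DAP.

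SUS3, another sucrose synthase, rose by 2.50 on the log2 scale (SE 0.5, edgeR adjusted p 0.00106). The sucrose exporters SWEET11 and SAG29 (SWEET15) rose with log2 changes of 1.14 (SE 0.22, edgeR adjusted p 0.000696) and 1.02 (SE 0.22, edgeR adjusted p 0.00239), whereas SWEET12 had 123 ± 32 CPM at 7 DAP and 123 ± 11.8 CPM at 6 DAP (SD, n = 4 each) and did not pass. SUC5, a sucrose importer of the endosperm, fell by 0.48 on the log2 scale (SE 0.13, edgeR adjusted p 0.0126), and the call was lost without WT 7 DAP replicate 1 (adjusted p 0.054). The cell wall invertases ATBFRUCT1, CWINV2 and cwINV4 did not pass the threshold.

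Of 10 tested amino acid transporters 3 rose and 1 fell. The 3 that rose belong to the UMAMIT family of exporters. UMAMIT28 (AT1G01070) had 89.8, 75.9, 39.6 and 44.7 CPM at 7 DAP, against 2.16, 3.51, 3.48 and 3.15 CPM at 6 DAP (log2 change 4.34, SE 0.47, edgeR adjusted p 1.37e-06). UMAMIT29 had 185 ± 45.5 CPM at 7 DAP and 49 ± 6.21 CPM at 6 DAP (SD, n = 4 each; log2 change 1.91, SE 0.23, edgeR adjusted p 4.37e-06), and UMAMIT25 had 615 ± 162 CPM at 7 DAP and 248 ± 32.9 CPM at 6 DAP (log2 change 1.31, SE 0.2, edgeR adjusted p 7.28e-05). The importer AAP1 went the other way, with 60.6, 56, 39.5 and 47.2 CPM at 7 DAP, against 92.1, 78.1, 93.1 and 83.7 CPM at 6 DAP (log2 change -0.77, SE 0.15, edgeR adjusted p 0.000714).

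Of 22 tested nuclear genes of photosynthesis 13 rose (59.1%, against 9.58% of all features) and 0 fell, with a median log2 change of 0.51. Their summed level was 19803, 21699, 22923 and 21511 CPM at 7 DAP, against 15816, 16498, 15680 and 17443 CPM at 6 DAP. LHCB2.2 (AT2G05070), a light-harvesting protein of photosystem II, had 279, 285, 307 and 320 CPM at 7 DAP, against 155, 170, 156 and 168 CPM at 6 DAP (log2 change 0.88, SE 0.19, edgeR adjusted p 0.00207). RBCS1B, a small subunit of Rubisco, had 2.14, 9.85, 9.59 and 5.72 CPM at 7 DAP, against 1.08, 0.847, 2.45 and 2.7 CPM at 6 DAP (log2 change 1.94, SE 0.59, edgeR adjusted p 0.0229). Its days overlapped, and the call was lost without WT 7 DAP replicates 2 or 3 or WT 6 DAP replicates 1 or 2, with adjusted p from 0.0565 to 0.0728. RBCS3B, another small subunit, rose by 1.21 on the log2 scale (SE 0.21, edgeR adjusted p 0.00023), and the Rubisco activase RCA with 0.80 (SE 0.16, edgeR adjusted p 0.0011). A further small subunit gene, RBCS1A, had 7177 ± 785 CPM at 7 DAP and 5584 ± 753 CPM at 6 DAP (SD, n = 4 each) and did not pass (edgeR adjusted p 0.159). Genes of the light-harvesting and Rubisco small subunit families are similar copies, and their single values are uncertain. Of 93 tested features of the plastid genome 8 rose (8.6%) and 3 fell (3.23%), and of 21 of the mitochondrial genome 2 rose (9.52%) and 0 fell.

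**Figure D3:**
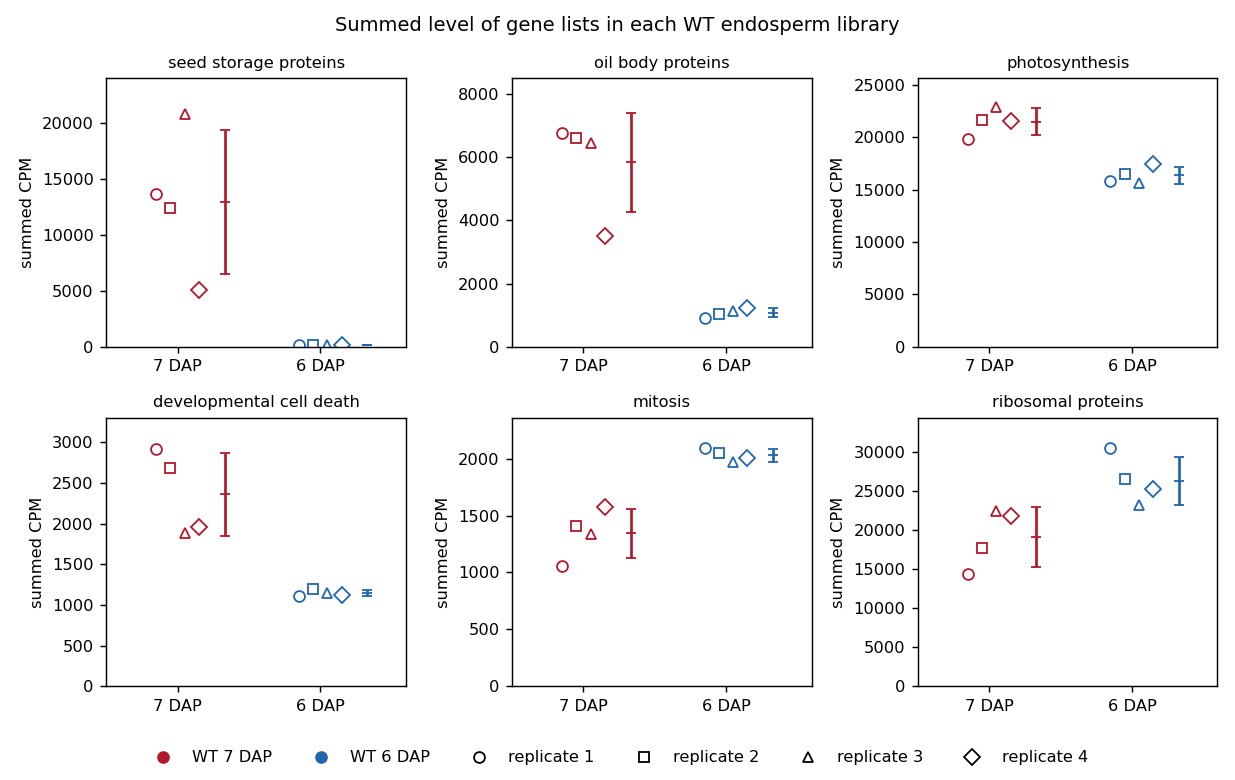
Summed CPM of 5 gene lists and of the ribosomal protein family in each WT library, WT 7 DAP left of WT 6 DAP, with a symbol for each replicate and a bar for mean ± SD (n = 4 each) on axes that start at 0. Storage and oil body proteins, photosynthesis and developmental cell death are higher in all 4 libraries of 7 DAP, and mitosis and ribosomal proteins are lower in all 4.

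The genes of mitosis, cytokinesis and DNA replication that passed were all lower at 7 DAP, and in each list most members did not pass. The shares lower were 47.4%, 23.1% and 22.2%, against 10.5% of all features, and these differences were not tested. All values are of nuclei sorted at the 6C level, and division in the endosperm as a whole was not measured. Of 19 tested genes of mitosis 0 rose and 9 fell (background 10.5% lower), and all 19 had a negative log2 change, with a median of -0.50. Their summed level was 1057, 1410, 1340 and 1576 CPM at 7 DAP, against 2095, 2054, 1969 and 2006 CPM at 6 DAP, without overlap. CYCB1;3 (AT3G11520), a B-type cyclin of entry into mitosis, had 23.8, 34.2, 24.2 and 32.2 CPM at 7 DAP, against 71.5, 67.7, 64.8 and 62.4 CPM at 6 DAP (log2 change -1.22, SE 0.21, edgeR adjusted p 0.000212). The B-type cyclin CYCB2;4 fell by 1.04 (SE 0.2, edgeR adjusted p 0.000712), the B-type kinase CDKB1;2 by 0.92 (SE 0.24, edgeR adjusted p 0.00793) and the anaphase activator CDC20.1 by 0.69 (SE 0.19, edgeR adjusted p 0.0125) on the log2 scale. The days of CDKB1;2 overlapped. The Aurora kinases AUR1, AUR2 and AUR3 did not pass the threshold, with log2 changes from -0.50 to -0.10.

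Of 13 tested genes of cytokinesis, the building of the new wall between daughter cells, 3 fell and 0 rose. POK2, a kinesin of the division plane, had 34 ± 9.66 CPM at 7 DAP and 64.6 ± 6.23 CPM at 6 DAP (SD, n = 4 each; log2 change -0.93, SE 0.21, edgeR adjusted p 0.00294), and the kinesin HIK and the microtubule protein PLE fell by 0.66 and 0.45 on the log2 scale (edgeR adjusted p 0.0235 and 0.0327). The syntaxin SYP111, also known as KNOLLE, did not pass, with 248 ± 38.1 CPM at 7 DAP and 304 ± 52.5 CPM at 6 DAP (SD, n = 4 each). The cytokinesis count was 1 without WT 7 DAP replicate 2, WT 7 DAP replicate 3 or WT 6 DAP replicate 3.

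Of 18 tested genes of DNA replication 4 fell and 0 rose, all 18 with a negative log2 change and a median of -0.55. PCNA1 (AT1G07370), the sliding clamp of DNA polymerase, had 32.9, 34.6, 49.5 and 61.8 CPM at 7 DAP, against 103, 83.8, 88.7 and 73.5 CPM at 6 DAP (log2 change -0.97, SE 0.24, edgeR adjusted p 0.00689). The helicase subunit MCM5 fell by 0.75 on the log2 scale (SE 0.18, edgeR adjusted p 0.00469). Calls for ORC2, of the origin recognition complex, and ICU2, of DNA polymerase alpha, were close to the threshold (edgeR adjusted p 0.0469 and 0.0208). Both were lost with the 8 WT libraries fitted alone (edgeR adjusted p 0.0624 and 0.0682). The replication count was 2 without WT 7 DAP replicate 2, WT 6 DAP replicate 1 or WT 6 DAP replicate 3, and 8 without WT 7 DAP replicate 4. None of the 6 tested genes of histones H3.1 and H4 passed in edgeR, with log2 changes from -0.70 to -0.05, with 3 lower at an unadjusted p under 0.05, 1 lower in DESeq2 and 3 lower with no filter on low counts. With a covariate for reads that fell outside features, the counts that fell were 3 for mitosis, 1 for cytokinesis and 0 for DNA replication. That share was 5.41 ± 0.521% at 7 DAP and 4.86 ± 0.183% at 6 DAP (SD, n = 4 each), and its part in these results was not tested beyond that fit.

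Of 67 tested ribosomal protein genes 24 fell (35.8%, against 10.5% of all features), 1 rose and 42 did not pass, with a median log2 change of -0.35. Their summed level was 14335, 17740, 22513 and 21866 CPM at 7 DAP, against 30498, 26533, 23186 and 25234 CPM at 6 DAP. The days did not overlap, although replicate 3 of 7 DAP came close to replicate 3 of 6 DAP. P40 (AT1G72370), a protein of the small ribosomal subunit, had 436, 565, 750 and 605 CPM at 7 DAP, against 1517, 1035, 1139 and 1226 CPM at 6 DAP (log2 change -1.06, SE 0.16, edgeR adjusted p 6.36e-05), and RPS6 (AT4G31700) fell by 1.03 on the log2 scale (SE 0.17, edgeR adjusted p 0.000138). Of the 14 of these genes that make plastid ribosomal proteins 0 passed in edgeR, with 4 higher and 1 lower at an unadjusted p under 0.05 and 1 higher in DESeq2, and their summed level overlapped between days, at 1627 to 2473 CPM at 7 DAP and 2020 to 2254 CPM at 6 DAP. The ribosomal count was 10 with the covariate. Many ribosomal protein genes have near-identical copies, and their single values are uncertain.

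Of 21 tested heat shock proteins 9 fell (42.9%, against 10.5% of all features), 1 rose (4.76%, against 9.58%) and 11 did not pass. Hsp70-2 (AT5G02490), a chaperone, had 215, 120, 110 and 125 CPM at 7 DAP, against 373, 349, 342 and 307 CPM at 6 DAP (log2 change -1.26, SE 0.18, edgeR adjusted p 2.42e-05). HSP81-3, of the HSP90 chaperones, fell by 0.96 on the log2 scale (SE 0.13, edgeR adjusted p 1.53e-05), while HSP90.1 (AT5G52640), of the same family and known to be induced by heat, rose by 1.04 on the log2 scale (SE 0.21, edgeR adjusted p 0.00131).

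Imprinted genes that passed were lower at 7 DAP with 1 exception, MEA. Of 14 tested imprinted genes 6 fell (42.9%, against 10.5% of all features) and 1 rose (7.14%, against 9.58%), with a median log2 change of -1.11. Their summed level ranged from 108 to 147 CPM at 7 DAP and from 268 to 364 CPM at 6 DAP. HDG3 (AT2G32370), a homeodomain factor expressed from the paternal copy, had 11.4, 18.8, 9.25 and 26.1 CPM at 7 DAP, against 157, 130, 153 and 126 CPM at 6 DAP (log2 change -3.12, SE 0.35, edgeR adjusted p 1.76e-06). PKR2, a chromatin remodeller also expressed from the paternal copy, had 27.8 ± 2.5 CPM at 7 DAP and 65.1 ± 13.5 CPM at 6 DAP (SD, n = 4 each; log2 change -1.23, SE 0.19, edgeR adjusted p 5.75e-05). Maternally expressed genes fell as well, with log2 changes of -2.32 for the homeodomain gene HDG9 (SE 0.56, edgeR adjusted p 0.00477), -2.08 for the F-box gene SDC (SE 0.43, edgeR adjusted p 0.0013) and -1.51 for FWA (SE 0.39, edgeR adjusted p 0.00826). With the covariate for reads that fell outside features HDG9 lost the call (edgeR adjusted p 0.0833), and the count of imprinted genes that fell was 4. The direction of a change in total transcript does not tell which parental copy changed, since the counts are not split by parent.

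Polycomb repressive complex 2 (PRC2) places H3K27me3 and keeps imprinted and early genes silent. Of its 8 subunit genes, 1 rose (12.5%, against 9.58% of all features) and 2 fell (25%, against 10.5%). Whether shares of so few genes differ from those of all features was not tested. FIE, shared by all forms of the complex, had 116, 82.4, 115 and 124 CPM at 7 DAP, against 185, 194, 183 and 194 CPM at 6 DAP (log2 change -0.79, SE 0.14, edgeR adjusted p 0.000423). FIS2, the seed-specific subunit, was low on both days, with 2.4, 2.53, 3.12 and 5.57 CPM at 7 DAP, against 11, 12.8, 14.8 and 6.98 CPM at 6 DAP (log2 change -1.75, SE 0.45, edgeR adjusted p 0.00849). MEA, the catalytic subunit of the same complex, had 8.7, 3.33, 3.9 and 8.35 CPM at 7 DAP, against 1.2, 3.03, 1.03 and 2.48 CPM at 6 DAP (log2 change 1.64, SE 0.5, edgeR adjusted p 0.0223). The call for MEA was lost without WT 7 DAP replicates 1 or 4 or WT 6 DAP replicates 1 or 3, with adjusted p from 0.0567 to 0.0754. With the covariate for reads that fell outside features, FIS2 and MEA both lost the call (edgeR adjusted p 0.0927 and 0.216). CLF and SWN, the other catalytic subunits, and VRN2, EMF2 and MSI1 did not pass.

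The type I MADS-box genes hold several regulators of early endosperm, and 13 of 17 measured were tested. AGL62 (AT5G60440), a repressor of wall formation in the endosperm, had 7.95, 7.72, 8.25 and 10.4 CPM at 7 DAP, against 2.28, 2.78, 3.36 and 2.7 CPM at 6 DAP (log2 change 1.62, SE 0.35, edgeR adjusted p 0.00199). AGL87 (AT1G22590) had 212, 193, 242 and 248 CPM at 7 DAP, against 312, 308, 345 and 306 CPM at 6 DAP (log2 change -0.50, SE 0.13, edgeR adjusted p 0.00665). The other 11 did not pass, and no library of either day held more than 5.91 CPM of any of them. Of 11 tested genes of DNA methylation and demethylation 0 rose and 2 fell (18.2%, against 10.5% of all features, a difference not tested). The maintenance methyltransferase MET1 fell by 0.62 (SE 0.18, edgeR adjusted p 0.0151) and the remodeller CHR1, also known as DDM1, by 0.81 (SE 0.2, edgeR adjusted p 0.00576) on the log2 scale. MET1 lost the call without WT 7 DAP replicate 1 or WT 6 DAP replicate 3 (edgeR adjusted p 0.0505 and 0.0567). With the covariate for reads that fell outside features, MET1 and CHR1 both lost it (edgeR adjusted p 0.199 and 0.0785). The demethylase DME had 103 ± 15 CPM at 7 DAP and 95.8 ± 15.6 CPM at 6 DAP (SD, n = 4 each) and did not pass. The HAIKU pathway sets endosperm growth, and its summed level was 17.9 ± 2.07 CPM at 7 DAP and 19.7 ± 4.44 CPM at 6 DAP (SD, n = 4 each). IKU1 had 8.33, 14.1, 12.4 and 12.6 CPM at 7 DAP, against 11.7, 15, 18.8 and 21.8 CPM at 6 DAP, values that overlap (log2 change -0.51, SE 0.24, edgeR adjusted p 0.136). Of the pathway's 5 genes 3 were tested, with 0 called in edgeR or DESeq2 and 1 lower at an unadjusted p under 0.05.

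Among the ZHOUPI genes, which act in the endosperm around the embryo, RGE1 (AT1G49770), the ZHOUPI factor itself, had 251, 253, 158 and 129 CPM at 7 DAP, against 142, 135, 122 and 127 CPM at 6 DAP (log2 change 0.58, SE 0.19, edgeR adjusted p 0.0358). Its days overlapped and the call was lost without any of 6 single WT libraries, so it rests on the full set. ICE1, its partner, had 534 ± 22.9 CPM at 7 DAP and 511 ± 28.1 CPM at 6 DAP (SD, n = 4 each) and did not pass.

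Genes of developmental cell death, the programme by which plant cells are taken apart, were higher at 7 DAP where they passed. Of 7 tested 5 rose (71.4%, against 9.58% of all features) and 0 fell, with a median log2 change of 1.11. Their summed level was 2914, 2684, 1883 and 1958 CPM at 7 DAP, against 1109, 1200, 1146 and 1128 CPM at 6 DAP. BFN1 (AT1G11190), a nuclease of dying cells, had 568, 492, 322 and 395 CPM at 7 DAP, against 22.9, 38.1, 61.6 and 40.8 CPM at 6 DAP (log2 change 3.44, SE 0.42, edgeR adjusted p 5.05e-06). The ribonuclease RNS3 (AT1G26820) had 234, 148, 117 and 72 CPM at 7 DAP, against 10.8, 12.1, 10.8 and 29.5 CPM at 6 DAP (log2 change 3.17, SE 0.45, edgeR adjusted p 2.86e-05). The days of both genes did not overlap, as was the case for 24% of all features, and replicate 1 was their highest library of 7 DAP.

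The cysteine protease CEP1 had 737 ± 132 CPM at 7 DAP and 221 ± 31.9 CPM at 6 DAP (SD, n = 4 each; log2 change 1.74, SE 0.23, edgeR adjusted p 1.24e-05), and the carboxypeptidase scpl48 and the vacuolar protease BETA-VPE, which also processes storage proteins, rose with log2 changes of 1.11 (SE 0.17, edgeR adjusted p 5.34e-05) and 1.01 (SE 0.24, edgeR adjusted p 0.00385). DELTA-VPE, a protease known from the inner seed coat, did not pass, with 390 ± 79.8 CPM at 7 DAP and 564 ± 58.6 CPM at 6 DAP (SD, n = 4 each; log2 change -0.53, SE 0.22, edgeR adjusted p 0.0928). All 5 calls stood in each fit without 1 WT library.

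**Figure D4:**
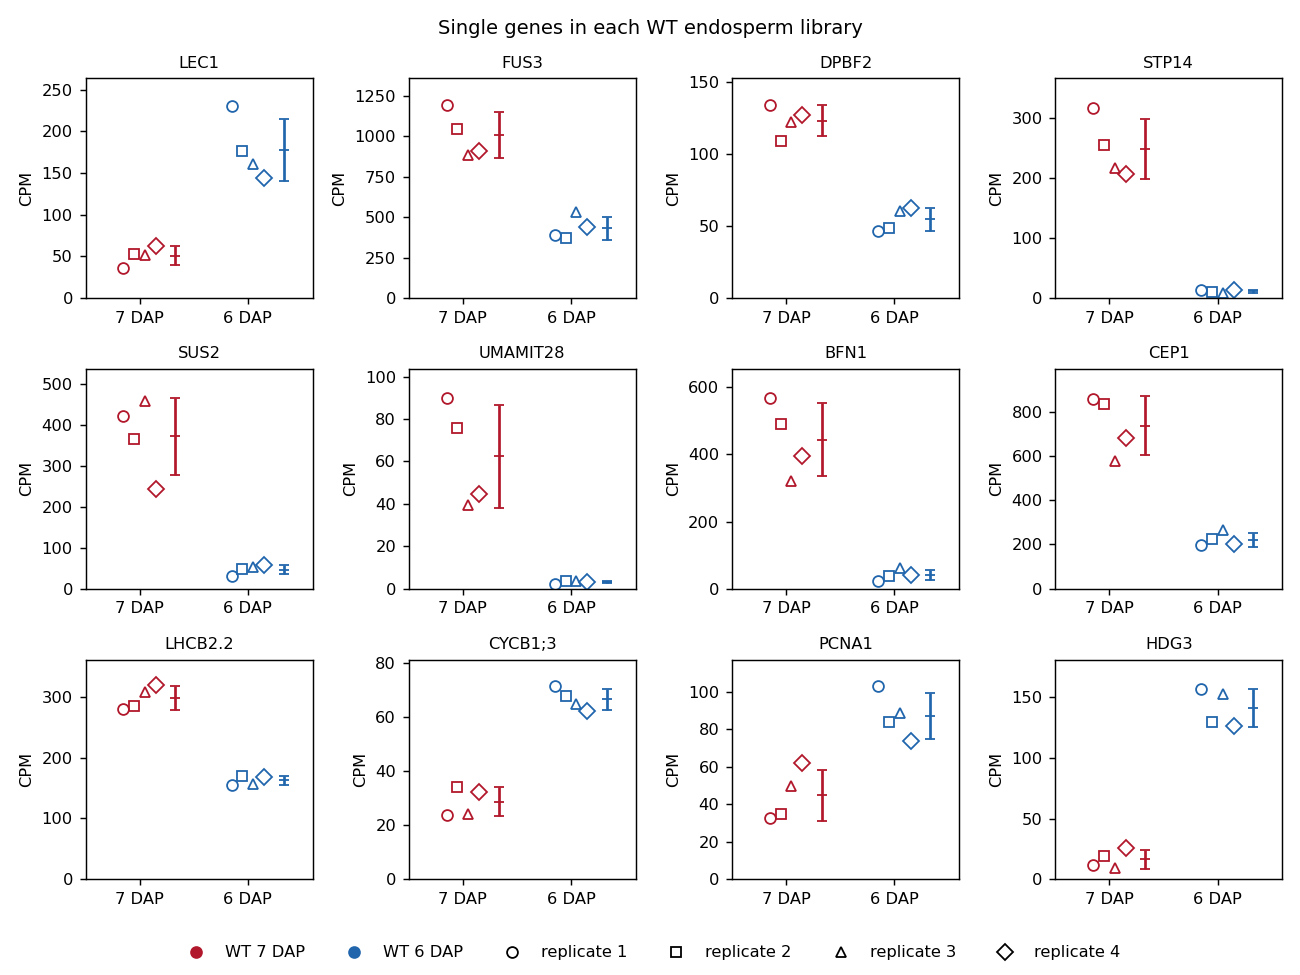
CPM of 12 genes in each WT library on axes that start at 0, WT 7 DAP left of WT 6 DAP, with a symbol for each replicate and a bar for mean ± SD (n = 4 each). The days do not overlap in any of the 12 panels, with LEC1, CYCB1;3, PCNA1 and HDG3 lower and the other 8 genes higher at 7 DAP. The 12 genes were picked from those that passed, so the lack of overlap is no separate result. Of all features 24% did not overlap between days, and some called genes not shown, such as DOG1 and RGE1, did overlap.

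NAC transcription factors, several of which act in senescence and wall formation, were mostly higher where they were called. Of 54 tested 14 rose (25.9%, against 9.58% of all features) and 3 fell. ANAC087 (AT5G18270), known from developmental cell death in the root cap, had 52.1, 70.8, 38.6 and 33.1 CPM at 7 DAP, against 6.23, 9.68, 8.26 and 13.9 CPM at 6 DAP (log2 change 2.35, SE 0.31, edgeR adjusted p 1.27e-05). NAC046, known from the same setting and from leaf senescence, had 15.1, 5.46, 5.91 and 7.62 CPM at 7 DAP, against 0.838, 0.968, 0.258 and 3.83 CPM at 6 DAP (log2 change 2.51, SE 0.66, edgeR adjusted p 0.00913). NAC010, NAC074 and NAC038 rose most in the family, with log2 changes of 3.75, 3.51 and 3.37 (edgeR adjusted p 0.000196, 0.0065 and 0.000101). Of 67 tested MYB factors 6 rose and 7 fell, and of 46 tested WRKY factors 4 rose and 6 fell, shares near those of all features. MYB107 (AT3G02940), a regulator of seed coat suberin, rose by 3.85 on the log2 scale (SE 0.74, edgeR adjusted p 0.000644) and WRKY42 (AT4G04450) with 2.64 (SE 0.27, edgeR adjusted p 5.77e-07). ANAC087, NAC046, MYB107 and WRKY42 were chosen after their values were seen.

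Gibberellin, abscisic acid and auxin are the main hormones of the growing seed. The shares higher and lower were 0% and 8.33% for gibberellin, 18.2% and 9.09% for abscisic acid and 0% and 28.6% for auxin genes. Those of all features were 9.58% and 10.5%, and differences from them were not tested. Of 12 tested genes of gibberellin synthesis and breakdown 1 fell and 0 rose, and it was GA3OX3 (AT4G21690), an enzyme that makes active gibberellin, with 1.77, 1.46, 2.68 and 2.49 CPM at 7 DAP, against 16.9, 16.7, 28.4 and 27.3 CPM at 6 DAP (log2 change -3.40, SE 0.57, edgeR adjusted p 0.000186). GA3OX4, another enzyme of that step, had 21.1 ± 5.21 CPM at 7 DAP and 14.6 ± 2.84 CPM at 6 DAP (SD, n = 4 each) and did not pass. Of 11 tested genes of abscisic acid 2 rose and 1 fell. NCED6, which makes abscisic acid in the endosperm, rose by 1.57 on the log2 scale (SE 0.46, edgeR adjusted p 0.0183), but its days overlapped and the change was 1.17 without WT 7 DAP replicate 1 (edgeR adjusted p 0.0916). CYP707A2, which breaks abscisic acid down, had 8.96, 7.19, 6.69 and 10.3 CPM at 7 DAP, against 1.32, 2.78, 0.903 and 3.15 CPM at 6 DAP (log2 change 2.01, SE 0.53, edgeR adjusted p 0.00956). Its call was lost with the covariate for reads that fell outside features (edgeR adjusted p 0.102). CYP707A1, of the same enzyme family, fell by 0.61 on the log2 scale (SE 0.21, edgeR adjusted p 0.045). The days of CYP707A1 overlapped, and its call was lost with the WT libraries fitted alone (edgeR adjusted p 0.0902). Of 7 tested genes of auxin synthesis and export 2 fell, TAA1 by 0.74 and PGP10 by 1.68 on the log2 scale (edgeR adjusted p 0.03 and 0.0368), both lost without WT 7 DAP replicate 1, among other single libraries. Of 22 tested AUX/IAA genes 1 rose, IAA10 (log2 change 0.87, edgeR adjusted p 0.0312).

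Genes of the cell wall and cuticle were called in both directions, against 9.58% higher and 10.5% lower of all features. The shares higher and lower were 10% and 0% for cellulose synthases and 28.6% and 4.76% for XTH wall enzymes. They were 13.6% and 4.55% for expansins and 5.88% and 17.6% for cutin and wax, and differences from all features were not tested. Of 10 cellulose synthase genes CESA9 (AT2G21770), known from the seed coat, rose to 30.7 ± 7.31 CPM at 7 DAP, against 9.48 ± 2.28 CPM at 6 DAP (SD, n = 4 each; log2 change 1.69, SE 0.35, edgeR adjusted p 0.00121). The other 9 did not pass, CESA10 among them with 502 ± 74.8 CPM at 7 DAP and 546 ± 35.2 CPM at 6 DAP. Of 21 tested XTH genes, which cut and rejoin xyloglucan in the wall, 6 rose and 1 fell, led by XTH16 (AT3G23730) by 2.29 on the log2 scale (SE 0.39, edgeR adjusted p 0.00019). Of 22 tested expansins, which loosen walls, 3 rose and 1 fell, and EXPA1 (AT1G69530) rose most, with 76.6, 55.4, 61.3 and 38.1 CPM at 7 DAP, against 8.86, 6.78, 15.7 and 9.35 CPM at 6 DAP (log2 change 2.51, SE 0.36, edgeR adjusted p 3.1e-05). Of 17 tested genes of cutin and wax 1 rose and 3 fell. CER2 (AT4G24510), which acts in making the longest wax chains, had 3.15, 0.799, 0.111 and 1.32 CPM at 7 DAP, against 21.8, 22.3, 12 and 19.9 CPM at 6 DAP (log2 change -3.83, SE 0.65, edgeR adjusted p 0.000195), and GPAT4, an acyltransferase of cutin, fell by 1.72 on the log2 scale (SE 0.4, edgeR adjusted p 0.00366).

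Of 135 tested cytochromes P450 17 rose (12.6%) and 8 fell (5.93%), and of 40 tested UDP-glycosyltransferases 6 rose (15%) and 2 fell (5%). Of 38 tested glutathione S-transferases 4 rose (10.5%) and 6 fell (15.8%). The shares of all features were 9.58% higher and 10.5% lower, and differences from them were not tested. CYP710A2 (AT2G34490), which makes a plant sterol, rose by 2.77 on the log2 scale (SE 0.36, edgeR adjusted p 8.23e-06), and GSTU15 (AT1G59670) had 3.03, 6.12, 0.669 and 2.49 CPM at 7 DAP, against 56.5, 34.9, 55 and 28.8 CPM at 6 DAP (log2 change -3.85, SE 0.54, edgeR adjusted p 2.21e-05). These were the families' most clearly changed members, chosen after their values were seen.

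Outside the lists, the 12 largest rises and the 12 largest falls were taken among 2920 features that passed, had a mean of at least 10 CPM over the 8 libraries and did not overlap between days, 1324 of them higher and 1596 lower. Of the 12 that rose, CRU3, SESA4, CRU2, SESA5 and SESA2 are storage proteins described above. AT1G62225 and its neighbour AT1G62220 rose with log2 changes of 11.62 (SE 0.86, edgeR adjusted p 1.22e-08) and 6.67 (SE 0.57, edgeR adjusted p 1.22e-07). AT1G62225 had 1761, 1400, 1019 and 907 CPM at 7 DAP, against 0.239, 0.726, 0.258 and 0.338 CPM at 6 DAP, and replicate 1, not replicate 3, was the highest at 7 DAP. RefSeq gives neither gene a name, and reads could be split between such neighbours. AT1G03103, AT2G38380 and AT5G05020, also without a name, rose with log2 changes of 7.97, 7.68 and 7.27 (edgeR adjusted p 2.3e-07, 1.37e-06 and 2.3e-07).

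LEA (AT2G21490), a dehydrin, had 39.9, 23.6, 38.5 and 4.69 CPM at 7 DAP, against 0.239, 0.121, 0.258 and 0.113 CPM at 6 DAP (log2 change 7.11, SE 0.99, edgeR adjusted p 2.28e-05). CWLP (AT3G22120), a linker of cell wall and plasma membrane, had 36.3, 34.1, 86.5 and 53 CPM at 7 DAP, against 0, 0.847, 0.903 and 0.901 CPM at 6 DAP (log2 change 6.28, SE 0.56, edgeR adjusted p 1.65e-07). Both were at or near 0 in all libraries of 6 DAP.

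Of the 12 that fell, 10 are genes to which RefSeq gives no name, 1 is the ubiquitin-conjugating enzyme gene UBC31 and 1 is a transposable element feature, AT1TE64910. UBC31 (AT1G36340) had 0.883, 0.133, 0 and 1.17 CPM at 7 DAP, against 28.7, 22, 41.9 and 16.6 CPM at 6 DAP (log2 change -5.68, SE 0.75, edgeR adjusted p 1.13e-05). AT1G19320 had 0.631, 0.799, 0.334 and 6.3 CPM at 7 DAP, against 128, 78, 80.8 and 53.7 CPM at 6 DAP (log2 change -5.48, SE 0.69, edgeR adjusted p 6.49e-06). Log2 changes of these 12 ran from -6.00 for AT1G27220 to -4.76 for AT5G52150.

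Transposable element features were called in both directions, and which direction held more calls rested on single libraries. Of 2535 tested 285 rose (11.2%) and 182 fell (7.18%), with a median log2 change of 0.72, against 9.4% and 10.9% of 22047 nuclear genes with a median of -0.01. Their share of all counts was 1.72 ± 0.266% at 7 DAP and 1.37 ± 0.0949% at 6 DAP (SD, n = 4 each), a difference of 0.349 percentage points that did not pass (exact two-sided permutation p 0.0857, 0.286 adjusted over 5 shares and totals). Without WT 7 DAP replicate 1 the counts were 111 higher and 139 lower, without WT 7 DAP replicate 4 161 and 173, without WT 6 DAP replicate 1 140 and 143, and without WT 6 DAP replicate 3 96 and 132, so that the balance turned round in each. It kept its direction without WT 7 DAP replicate 2, with 186 higher and 151 lower, and without WT 6 DAP replicate 4, with 165 and 148. The difference from nuclear genes was not tested. With a covariate for reads that fell outside features the counts were 54 higher and 127 lower, and the share of such reads differed by 0.545 percentage points between days (exact two-sided permutation p 0.114, adjusted 0.286).

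The day change of WT was set beside that of crwn1/2, which shares no library with it but shares the spread of the fit. In crwn1/2 2769 features changed (11.2%), 1623 higher (6.57%) and 1146 lower (4.64%), and 738 features were higher and 452 lower in both genotypes. The change itself differed between genotypes for 862 features (edgeR adjusted p under 0.05, 3.49%), a count of 536, 497 and 570 without WT 6 DAP replicates 1, 3 and 4, 478 without crwn1/2 6 DAP replicate 2, 146 with the covariate and 1523 in DESeq2. The 9 storage protein genes and the 7 oil body genes rose in both genotypes, with median log2 changes of 7.45 in WT and 6.08 in crwn1/2 for the first and 2.53 and 2.77 for the second. For none of the 16 did the difference pass in edgeR, which does not show that the changes were equal. Without single libraries it passed for 0 storage and 0 to 1 oil body genes. Storage genes summed to 623, 3940, 6718, 5415 and 2974 CPM in crwn1/2 at 7 DAP, replicate 1 being far the lowest, against 5057 to 20784 CPM in WT. Oil body genes summed to 1052 to 3307 CPM in crwn1/2 at 7 DAP, again lowest in replicate 1, against 3497 to 6771 CPM in WT. Of the 22 photosynthesis genes 13 rose in WT and 21 in crwn1/2, and of the 31 genes of fatty acid and oil synthesis 4 rose in WT and 18 in crwn1/2. Median log2 changes were 0.51 in WT and 0.88 in crwn1/2 for photosynthesis, and 0.09 and 0.51 for oil synthesis. The difference itself passed for 0 photosynthesis and 2 oil synthesis genes, so the unequal counts alone do not show that the genotypes differed. PDH-E1 BETA (WT minus crwn1/2 on the log2 scale -0.997, edgeR adjusted p 0.00602) passed in all 16 fits that left out 1 library. KAS III (-0.666, edgeR adjusted p 0.0449) lost the call in 12 of 16. Whether these lists as a whole differed between genotypes was not tested. Without single crwn1/2 libraries the count in crwn1/2 ranged from 16 to 21 for photosynthesis and from 6 to 17 for oil synthesis. Summed levels at 6 DAP were lower in crwn1/2. They were 9867 to 12991 CPM against 15680 to 17443 CPM in WT for photosynthesis, and 5938 to 7558 against 9919 to 10440 CPM for oil synthesis. At 7 DAP the genotypes overlapped, at 16895 to 23154 and 19803 to 22923 CPM for photosynthesis, and 9207 to 11721 and 10034 to 11736 CPM for oil synthesis. These sums were not tested between genotypes.

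For mitosis 9 genes fell in WT and 0 passed in crwn1/2 in edgeR, where the median log2 change was 0.06. The difference passed for 3 of 19, which are CDKB2;1 (WT minus crwn1/2 on the log2 scale -0.86, SE 0.2, edgeR adjusted p 0.0206), CYCB2;4 (-1.20, SE 0.29, edgeR adjusted p 0.0225) and CYCB2;2 (-1.30, SE 0.35, edgeR adjusted p 0.0371). Without single libraries of either genotype that count ranged from 0 to 6. At 6 DAP the summed mitosis level was 1243, 1129 and 1926 CPM in crwn1/2, below the 1969 to 2095 CPM of WT. At 7 DAP the genotypes overlapped, with 1223 to 1629 CPM in crwn1/2 and 1057 to 1576 CPM in WT. The unequal day changes thus go with unequal levels at 6 DAP. Differences of these sums between genotypes were not tested.

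**Figure D5:**
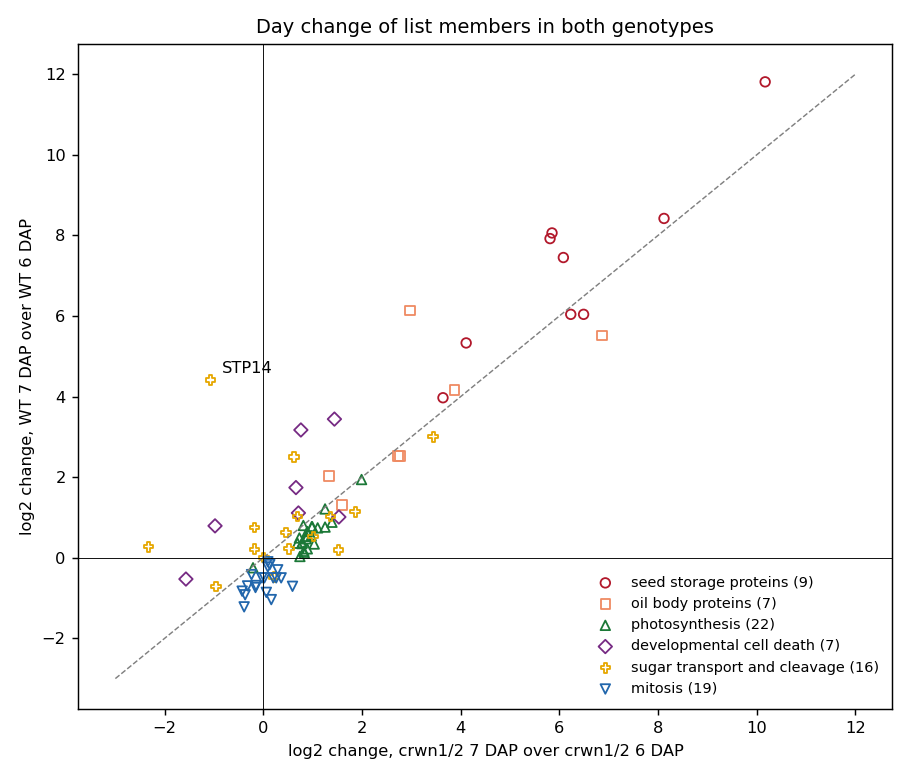
Log2 change from 6 to 7 DAP of the tested members of 6 gene lists, WT on the vertical and crwn1/2 on the horizontal axis, with a dashed line where both are equal. Storage and oil body proteins are positive in both genotypes, mitosis genes are below 0 in WT and scatter around 0 in crwn1/2, and STP14 lies at 4.41 in WT and -1.07 in crwn1/2.

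Among the listed genes, STP14 had the smallest adjusted p for a difference of the day change between genotypes. It rose in WT, as given above, and in crwn1/2 it had 37.1, 20.8, 20.9, 40 and 18.7 CPM at 7 DAP, against 51.3, 53.2 and 68.6 CPM at 6 DAP (log2 change -1.07, edgeR adjusted p 0.0027). The crwn1/2 libraries of both days lay between the WT days. The difference of the 2 day changes was 5.48 on the log2 scale (SE 0.33, edgeR adjusted p 3.84e-10) and ranged from 5.31 to 5.66 without single libraries.

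LEC1 fell in WT, while crwn1/2 had 169, 155, 133, 122 and 117 CPM at 7 DAP, against 165, 176 and 148 CPM at 6 DAP, values that overlap. The difference was -1.59 on the log2 scale (SE 0.24, edgeR adjusted p 0.00078), with adjusted p from 0.00041 to 0.00406 over the 16 fits that left out 1 library. The imprinted gene PKR2 (-1.28, SE 0.27, edgeR adjusted p 0.00957), the cytokinesis gene PLE (-0.96, SE 0.21, edgeR adjusted p 0.0144), the MADS-box gene AGL87 (-0.82, SE 0.18, edgeR adjusted p 0.0146) and the ribosomal protein gene P40 (-1, SE 0.23, edgeR adjusted p 0.0188) also passed in all 16 of these fits. CYP710A2 (3.14, SE 0.48, edgeR adjusted p 0.00078) and NAC074 (5.56, SE 1.2, edgeR adjusted p 0.0119), which rose in WT, did so as well.

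Cell death and amino acid transport gave calls that rest on single libraries. BFN1 in crwn1/2 had 24.7, 37.1, 50, 78.2 and 52.4 CPM at 7 DAP, against 11.4, 4.46 and 37.6 CPM at 6 DAP, and all 5 of its libraries at 7 DAP lay below all 4 of WT 7 DAP. The difference of its day changes was 2.01 on the log2 scale (SE 0.57, edgeR adjusted p 0.0488), and it lost the call in 10 of 16 fits that left out 1 library. For RNS3 the difference was 2.41 (SE 0.63, edgeR adjusted p 0.0355), lost in 8 of 16, and for UMAMIT28 it was 2.48 (SE 0.63, edgeR adjusted p 0.0306), lost in 6 of 16. MEA differed by 2.85 (SE 0.69, edgeR adjusted p 0.0225), lost in 3 of 16.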

How the data were processed

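Nuclear RNA of sorted endosperm nuclei was made into full-length cDNA libraries with a SMART-Seq kit, per the labels' protocols. The authors deposited raw counts per feature, 1 table per library, and the values were checked to be whole numbers (1277340 values, 0 failing). Reads were trimmed with Trim Galore 0.6.7, aligned with STAR 2.7.1a and counted with HTSeq on TAIR10, per the submitters' processing notes. The annotation version and strand setting are not given in the sources used here, so antisense, overlapping and near-identical genes are uncertain. The deposited H3K27me3 peak lists, with read counts per peak by the authors, carry no day and were not used, nor were their 12 control columns.

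Counts of 20 libraries in 5 groups were fitted together with edgeR 4.0.16 in R 4.3.3 (quasi-likelihood F-test, TMM scaling, features with at least 10 counts in enough libraries and 15 in all). Adjusted p-values are Benjamini-Hochberg over 24696 of 63867 features, with a threshold of 0.05. The SE is the log2 change over the root of F. HTSeq summary rows were left out of totals and tests and are given as the share of reads outside features. DESeq2 1.42.0 was an alternative. Shares were compared by exact permutation tests in scipy 1.17.1 (Python 3.11.15), and figures drawn with matplotlib 3.10.9. The fits were tested on simulated data. No replicate pair agreed within sampling noise, with a chi-square per feature from 8.636 to 28.15.

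Members and lists were chosen with earlier results of these data known. The 28 lists hold 390 entries (374 genes), of which 26 without a RefSeq name were left out, 364 were measured and 344 tested. The 12 families were taken from RefSeq names after the data were seen and corrected once after their counts were seen. RefSeq TAIR10.1 served for names only (31912 of 32678 gene IDs matched). Genes named are the 12 largest rises and 12 largest falls with a mean of at least 10 CPM and no overlap between days, and up to 3 per direction in each list. Members at 0 or short of the threshold are named with their values, and other members, those of families included, were chosen after their values were seen. Alternatives were the WT libraries alone, RLE or no scaling, DESeq2, no filter, nuclear genes only, a replicate block, a covariate and leaving out each library.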

Additional observations from a re-analysis of the deposited data

Results flagged for a closer look

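Of 114 groups of 4 or 5 libraries examined, 9 held a library whose gap to the others was large for the group's range, and chance gives such a gap in about 1 in 20 groups. Replicate 4 of WT 7 DAP was the outlying library for the oil body proteins, at a summed 3497 CPM against 6445 to 6771 CPM in the other libraries of that day, and for AT1G19320, AT2G21420 and AT2G24950, where it was the highest at 6.3, 1.76 and 4.69 CPM. AT5G39230 was highest in WT 7 DAP replicate 1, at 6.56 CPM. At 6 DAP, AT2G19802 was lowest in replicate 4 at 96.1 CPM, AT5G52150 highest in replicate 3 at 30.5 CPM, and CWLP lowest in replicate 1 at 0 CPM. The summed type I MADS-box genes were highest in WT 6 DAP replicate 3, at 355 CPM against 317 to 322 CPM in the other libraries of that day.

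Among the 24 genes with the largest changes, the day change differed between genotypes for AT1G19320, by -4.10 on the log2 scale (WT minus crwn1/2, edgeR adjusted p 0.0116), and for AT2G19802, by -4.08 (edgeR adjusted p 0.0085). In crwn1/2, AT1G19320 had 20.3 to 41 CPM at 7 DAP, against 50.1 to 104 CPM at 6 DAP, and AT2G19802 had 38.6 to 177 CPM, against 120 to 279 CPM.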

How the results depend on the processing

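All storage protein (9), oil body (7) and cell death (5) genes that rose did so under every alternative run, and of 91 named genes no log2 change reversed. Named genes gave 1333 alternative values on the same side of the threshold and 120 that lost it. The replicate numbers did not pair the libraries (correlations of deviations -0.0015, -0.042, 0.074 and -0.011). With a replicate block, 3297 features changed, 1708 of them lower. With a covariate for reads that fell outside features, 2572 changed, 1294 higher and 1278 lower, and the difference between genotypes was called for 146. That difference was called for 1523 features in DESeq2 and 1423 with no filter. The split of calls moved to 1637 higher and 3368 lower with no filter. Leaving out 1 library gave 3559 to 4688 changed features, 1649 to 2273 higher and 1887 to 2419 lower, and 478 to 992 for the genotype difference. It gave differences between days of 0.245 to 0.453 percentage points for transposable elements, -0.0475 to 0.185 for the plastid genome, 0.00478 to 0.029 for the mitochondrial genome and 0.375 to 0.746 for reads outside features, and -0.711 to 0.11 for total counts in units of 1000000. The causes were not tested.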
